A study of Saccharomyces cerevisiae with 6 samples.

Results

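The *ccr4Δ pbp1Δ* mutant in stationary phase was compared with wild-type in stationary phase, to find which mRNAs differed when *CCR4* and *PBP1* were both deleted. The comparison was chosen by strain and growth phase from the sample labels, and it used 2 of the 6 arrays of the series. Each of wild-type, the *ccr4Δ* mutant and the *ccr4Δ pbp1Δ* mutant had 1 array in log phase and 1 in stationary phase, from *Saccharomyces cerevisiae* grown in YPD (rich glucose medium) at 28°C. The strains derive from W303, the 10B wild-type carries mutations in *URA3*, *HIS3*, *LEU2*, *CAN1*, *TRP1* and *ADE2* and an *HO* promoter that drives *ADE2*, and *CCR4* was replaced by the *LEU2* gene of *Candida glabrata* in the *ccr4Δ* strain that the study lists. In that list 10B is *MATα*, the *ccr4Δ* strain is *MATa* and no *ccr4Δ pbp1Δ* strain appears. Which isolates were hybridised is not stated. The sample titles name the growth phase but give no culture time or density. Mating type, the marker genes, the growth state at harvest and the deletions cannot be told apart in any ratio below.

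Ccr4 is a deadenylase of the Ccr4-Not complex, which shortens the poly(A) tail of mRNAs in the cytoplasm and so prepares them for decapping and decay. Pbp1, the yeast relative of human ataxin-2, binds the poly(A)-binding protein Pab1, and loss of *PBP1* is known to relieve growth defects of *ccr4Δ* cells. Yeast cells that have used up their glucose stop dividing, lower the synthesis of ribosomes, turn to respiration of ethanol and acetate, and store trehalose and glycogen.

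Levels are given as the signal of a gene in percent of the 75th percentile of its array, and ratios as log2 of the *ccr4Δ pbp1Δ* level over the wild-type level. A log2 ratio of 1 is a 2-fold difference. Levels are relative to the other mRNAs of the same array, and a change in the mRNA content of a cell was not measured. With 1 array on each side the ratios could not be checked against replicates and carry no p-value. The 4 ratios between single spots (2 spots on each array) show the technical spread only, and the SD between spots was 0.08 on the log2 scale on both arrays. Both arrays were on the same slide. Their 75th percentiles were 14100 signal units for wild-type and 12517 for the *ccr4Δ pbp1Δ* mutant. The share of probes well above background was 97.1% and 94.5%.

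The deleted genes were checked first. The *PBP1* level (YGR178C) in stationary phase was 92.2 in wild-type, 105 in the *ccr4Δ* mutant and 0.129 in the *ccr4Δ pbp1Δ* mutant, where it was not well above background. Its level in wild-type exceeded that of the *ccr4Δ pbp1Δ* mutant at least 209-fold, a bound taken against the lowest level well above background on the dim array, 0.442. *CCR4* (YAL021C) was at 18.3 in wild-type and at 0.0854 in the *ccr4Δ pbp1Δ* mutant, a difference of at least 41.3-fold. The stationary phase label was checked with the gluconeogenic and glyoxylate genes, whose median level on the wild-type arrays was 5.86 in log phase and 726 in stationary phase. On the *ccr4Δ pbp1Δ* arrays the same median was 8.60 in log phase and 314 in stationary phase, so both strains carried high levels of these mRNAs in the samples labelled as stationary. The 70 ribosome biogenesis factors had a wild-type median of 149 in log phase, against 81.5 in stationary phase. The medians of the *ccr4Δ pbp1Δ* mutant were 154 and 26.1.

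In all, 5869 of 6225 genes were well above background on both stationary phase arrays. Of these, 747 (12.7%) were at least 2-fold higher in the *ccr4Δ pbp1Δ* mutant and 930 (15.8%) at least 2-fold lower. All single-spot ratios passed the 2-fold limit for 674 of the former and 818 of the latter. The median log2 ratio over all genes was -0.09 and the ratios ran from -5.45 to 6.06. Fewer genes passed 2-fold in log phase: 126 of 5765 genes (2.19%) were at least 2-fold higher and 165 (2.86%) at least 2-fold lower. That ratio spans both slides, since the wild-type log phase RNA was the only one hybridised on slide 1, and slide and strain cannot be told apart in it. A further 11 genes were well above background only in the *ccr4Δ pbp1Δ* mutant in stationary phase and 176 only in wild-type. Of these, 11 and 22 had a bound of at least 2-fold. The lowest level well above background was 0.442 on the *ccr4Δ pbp1Δ* array and 0.176 on the wild-type array. The floors were thus unequal, and the counts of 11 and 176 cannot be compared as numbers of changed mRNAs. *ACT1* (actin) was itself 2.87-fold higher in the *ccr4Δ pbp1Δ* mutant, at 894 against 311. Setting *ACT1* equal on the arrays lowers every ratio by 1.52, so the median over all genes becomes -1.61 and each list below with a smaller positive median falls under 0. The list medians are therefore read against the median over all genes, which moves with them. Counts of genes past 2-fold in a list are read against the 12.7% higher and 15.8% lower over all genes.

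**Figure D1:**
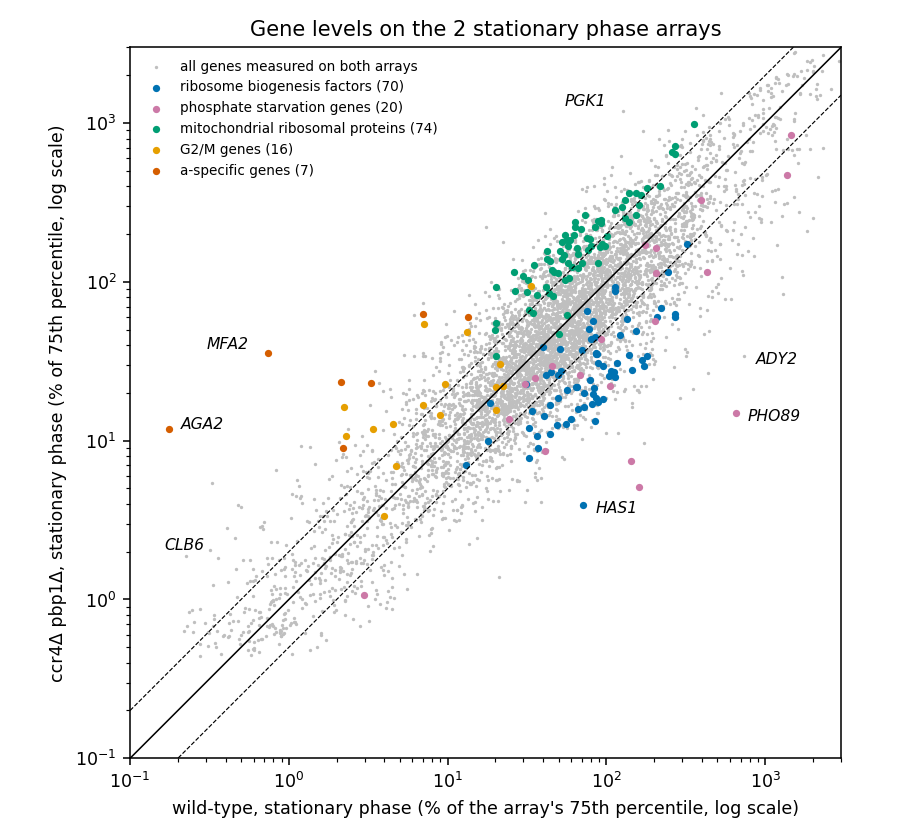
Level of each of 5869 genes on the wild-type stationary phase array (x axis) and the *ccr4Δ pbp1Δ* stationary phase array (y axis), both in percent of the 75th percentile of the array on log scales. The solid line marks equal levels and the dashed lines a 2-fold difference. The 54 mitochondrial ribosomal protein genes past the upper line and 51 ribosome biogenesis genes past the lower line lie on opposite sides. All 7 a-specific genes lie past the upper dashed line. With *ACT1* set equal the median of the mitochondrial ribosomal proteins falls under 0.

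All 7 a-specific genes, which *MATa* cells express to mate, were at least 2-fold higher in the *ccr4Δ pbp1Δ* mutant, with a median log2 ratio of 3.17. The level of *AGA2*, a subunit of a-agglutinin, was 0.176 in wild-type, 78.0 in the *ccr4Δ* mutant and 11.8 in the *ccr4Δ pbp1Δ* mutant in stationary phase. Both mutants were thus far above wild-type, the single mutant more so. The wild-type level of *AGA2* equals the lowest level well above background on that array, 0.176, so the size of its ratio is uncertain. *MFA2* and *MFA1*, which encode the a-factor pheromone, had log2 ratios of 5.59 and 3.17. *BAR1*, a protease that cuts α-factor, had 3.47, and *STE2*, the α-factor receptor, had 2.81. The log phase ratio of *STE2* was 6.94, at levels of 2.72 in wild-type and 335 in the *ccr4Δ pbp1Δ* mutant.

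The 3 measured α-specific genes were all at least 2-fold lower, with *MF(ALPHA)1* (α-factor) at 21.2 in wild-type and 1.39 in the *ccr4Δ pbp1Δ* mutant, *STE3* (the a-factor receptor) at 26.1 and 10.1, and *SAG1* (α-agglutinin) at 18.8 and 7.78. *HMRA1*, whose sequence is shared with the *MATa1* gene, was at 346 in the *ccr4Δ pbp1Δ* mutant and not well above background in wild-type, a difference of at least 1968-fold. *MATALPHA1* was 8.39-fold lower and the near-identical *HMLALPHA1* 8.85-fold lower. Of the 5 measured genes of the mating-type loci, these 2 passed 2-fold. Wild-type thus carried the mRNAs of a *MATα* strain and the *ccr4Δ pbp1Δ* mutant those of a *MATa* strain. Among the 21 measured genes of the pheromone response, 6 were at least 2-fold higher and 3 lower, beside 12.7% and 15.8% of all genes. *KAR4*, a transcription factor for mating, had a log2 ratio of 1.65 and *KSS1*, a MAP kinase of filamentous growth and mating, had -1.84.

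The mitochondrial ribosomal proteins, which translate the few mRNAs made inside mitochondria, formed the largest group with higher levels. Of 74 measured genes, 54 were at least 2-fold higher in the *ccr4Δ pbp1Δ* mutant and 0 lower, with a median log2 ratio of 1.32, or -0.20 with *ACT1* set equal. *MRPL32* was at 20.1 in wild-type, 100.0 in the *ccr4Δ* mutant and 93.0 in the *ccr4Δ pbp1Δ* mutant, a log2 ratio of 2.21 with single-spot ratios of 2.14 to 2.27. *RSM24* was at 26.0, 93.1 and 116 on the same arrays. For both genes the mutant arrays were above the wild-type array, with 1 array each. *RSM22* had the lowest ratio of the group, -0.11. The median of the list was 1.22 in the *ccr4Δ* mutant over wild-type in stationary phase, and 0.43 in the *ccr4Δ pbp1Δ* mutant over wild-type in log phase.

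The respiratory enzymes built in the same organelle differed less. None of the 15 ATP synthase genes and none of the 4 genes of complex II passed 2-fold, with median log2 ratios of 0.74 and 0.70. These medians become -0.78 and -0.82 with *ACT1* set equal. Complex III had a median of 0.10, complex IV of 0.42 and the 14 TCA cycle enzymes of -0.04. The medians of complexes III and IV also fall under 0 with *ACT1* set equal, and those of complex III and the TCA cycle lie so near 0 that other scalings turn their sign. The ATP synthase median in the *ccr4Δ* mutant over wild-type was 0.10. The 7 measured genes encoded by the mitochondrial genome had a median of -0.56, with 1 at least 2-fold lower. *CIT3*, a mitochondrial citrate synthase isoform, was the only TCA cycle gene past 2-fold, at 41.4 in wild-type, 47.7 in the *ccr4Δ* mutant and 9.76 in the *ccr4Δ pbp1Δ* mutant.

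The B-type cyclins drive DNA replication and mitosis together with the kinase Cdc28. *CLB6*, an S phase cyclin, was at 0.360 in wild-type, 3.13 in the *ccr4Δ* mutant and 1.82 in the *ccr4Δ pbp1Δ* mutant in stationary phase. Its log2 ratio was 2.34, with single-spot ratios of 2.32 to 2.37, which ranked 40 from the highest among the 5869 genes. The wild-type level of *CLB6* was low, beside 0.176 for the lowest level well above background on that array. The size of its ratio is therefore uncertain. *CLB1* was at 7.0 in wild-type, 39.4 in the *ccr4Δ* mutant and 35.8 in the *ccr4Δ pbp1Δ* mutant, and *CLB2*, its partner in mitosis, at 1.98, 8.97 and 7.59. These 3 cyclin mRNAs lay above wild-type in both mutants. *CLB4* had a log2 ratio of 0.64 and did not reach 2-fold. *CLB3* and *CLB5* had 0.05 and -0.08, values whose sign depends on the scaling. The median over the 6 genes was 1.29, or -0.23 with *ACT1* set equal. None of the G1 cyclins reached 2-fold: *CLN1* had -0.09, *CLN2* 0.39 and *CLN3* -0.98. In the *ccr4Δ* mutant over wild-type *CLN3* had -0.04.

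Genes expressed in G2 and mitosis gave a like median. Of 16 genes, 9 were at least 2-fold higher and 0 lower, with a median log2 ratio of 1.25, or -0.28 with *ACT1* set equal. *CHS2*, the chitin synthase of the division septum, was at 7.15 in wild-type, 81.9 in the *ccr4Δ* mutant and 54.4 in the *ccr4Δ pbp1Δ* mutant. *SWI5*, a transcription factor of late mitosis, was at 2.21, 14.3 and 16.2. In log phase *CHS2* was at 87.7 in wild-type and 148 in the *ccr4Δ pbp1Δ* mutant, so its level in stationary phase was below that of log phase in both strains and the distance between the strains was wider. *KIN3*, a kinase, and *HOF1*, a protein of the bud neck, had log2 ratios of 2.22 and 1.82. Genes of other cell cycle stages showed less. Of 18 G1/S genes, 2 were at least 2-fold higher and 1 lower, beside 12.7% and 15.8% of all genes. None of the 8 MCM and licensing genes or the 10 histone genes passed 2-fold. *CDC21*, thymidylate synthase, had 1.55 and *SWE1*, the kinase that restrains Cdc28, had -1.16. Among the 7 ribonucleotide reductase genes, *RNR2* and *RNR4*, small subunits, had 1.32 and 1.22 and *RNR1*, the large subunit, had -0.48. The ratios of *RNR2* and *RNR4* fall under 0 with *ACT1* set equal.

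The cytoskeleton and chaperone genes were further groups with medians more than 2-fold higher, and both medians fall under 0 with *ACT1* set equal. Of 20 actin and tubulin cytoskeleton genes, 12 were at least 2-fold higher and 0 lower, with a median of 1.21, or -0.31 with *ACT1* set equal. *TPM1*, a tropomyosin of actin cables, was at 96.7 in wild-type, 407 in the *ccr4Δ* mutant and 452 in the *ccr4Δ pbp1Δ* mutant. *ABP1* and *CAP1*, actin-binding proteins of cortical patches, had log2 ratios of 1.97 and 1.91, and *TUB2*, β-tubulin, had 1.59. *BNI1*, a formin, had -0.82. Of 28 heat shock proteins and chaperones, 15 were at least 2-fold higher and 3 lower, with a median of 1.08, or -0.44 with *ACT1* set equal. *SSA1*, a cytosolic Hsp70, was at 213 in wild-type, 497 in the *ccr4Δ* mutant and 793 in the *ccr4Δ pbp1Δ* mutant, and *HSP60*, the mitochondrial chaperonin, at 529, 1105 and 1553. *SSB1* and *SSB2*, near-identical Hsp70 proteins bound to ribosomes, went the other way, with log2 ratios of -2.24 and -1.87. The proteasome subunits had a median of 0.70, or -0.82 with *ACT1* set equal. Of 33 genes, 6 were at least 2-fold higher, beside 12.7% of all genes. The highest were *PRE3* at 1.59 and *PRE1* at 1.53, both core subunits.

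Glycolytic genes had ratios from -1.18 to 3.39. Of 20 genes, 5 were at least 2-fold higher and 2 lower, beside 12.7% and 15.8% of all genes. The median of the list was 0.39, or -1.14 with *ACT1* set equal. *PGK1*, phosphoglycerate kinase, was at 128 in wild-type, 525 in the *ccr4Δ* mutant and 1186 in the *ccr4Δ pbp1Δ* mutant in stationary phase, and at 2436, 1890 and 1767 in log phase. The strains thus lay further apart in stationary phase than in log phase. *PDC5* and *PDC1*, the pyruvate decarboxylases, had log2 ratios of 3.39 and 2.40, and *ENO2* and *ENO1*, the enolases, had 2.27 and 2.15. *HXK2*, the main hexokinase on glucose, had -1.18. Hexose transporters divided, with 5 of 17 at least 2-fold higher and 5 lower, beside 12.7% and 15.8% of all genes. *HXT13* was at 0.497 in wild-type and 3.80 in the *ccr4Δ pbp1Δ* mutant, and *HXT17*, *HXT16*, *HXT15* and *HXT9* had log2 ratios of 2.10 to 2.33. The wild-type level of *HXT13* was low, beside 0.176 for the lowest level well above background on that array. *HXT7*, a high-affinity transporter, was at 2314 in wild-type, 583 in the *ccr4Δ* mutant and 692 in the *ccr4Δ pbp1Δ* mutant. Its near-identical neighbour *HXT6* had a ratio of -1.48, *HXT4* had -1.98 and *HXT1*, a low-affinity transporter, had -1.55. Cross-hybridization between the transporter genes was not checked, so 1 signal may be counted for more than 1 of them.

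The ribosome biogenesis factors, which process ribosomal RNA and assemble subunits in the nucleolus, formed the largest group with lower levels. Of 70 genes, 51 were at least 2-fold lower in the *ccr4Δ pbp1Δ* mutant and 0 higher, with a median log2 ratio of -1.66. *HAS1*, an RNA helicase, was at 71.6 in wild-type, 8.27 in the *ccr4Δ* mutant and 3.93 in the *ccr4Δ pbp1Δ* mutant in stationary phase, and at 151, 86.3 and 111 in log phase. Its log2 ratio of -4.19 was the lowest of the group, and the next, *UTP8* of the small subunit processome, had -2.66. *NSR1*, a nucleolin-like protein, had -2.55, *NOG1*, a GTPase, had -2.41 and *NOP58*, a core protein of snoRNPs, had -2.16. *SOF1* had the highest ratio, -0.02. The median was -1.26 in the *ccr4Δ* mutant over wild-type in stationary phase and 0.03 in the *ccr4Δ pbp1Δ* mutant over wild-type in log phase.

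Ribosomal protein genes were lower as well, by less. Of 80 genes of the large subunit, 31 were at least 2-fold lower and 0 higher, with a median of -0.87, and of 57 genes of the small subunit, 19 were lower and 0 higher, with a median of -0.82. *RPL3* was at 388 in wild-type, 130 in the *ccr4Δ* mutant and 68.5 in the *ccr4Δ pbp1Δ* mutant. *RPL8A* and *RPL5* had log2 ratios of -2.33 and -1.89, and *RPS28B* and *RPS7A* had -1.59 and -1.55. *RPL18B* and *RPS22B* had the highest ratios, 0.44 and 0.75. The medians of the *ccr4Δ* mutant over wild-type were -0.36 and -0.34. Many of these genes come in near-identical pairs, and cross-hybridization between them was not checked.

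**Figure D2:**
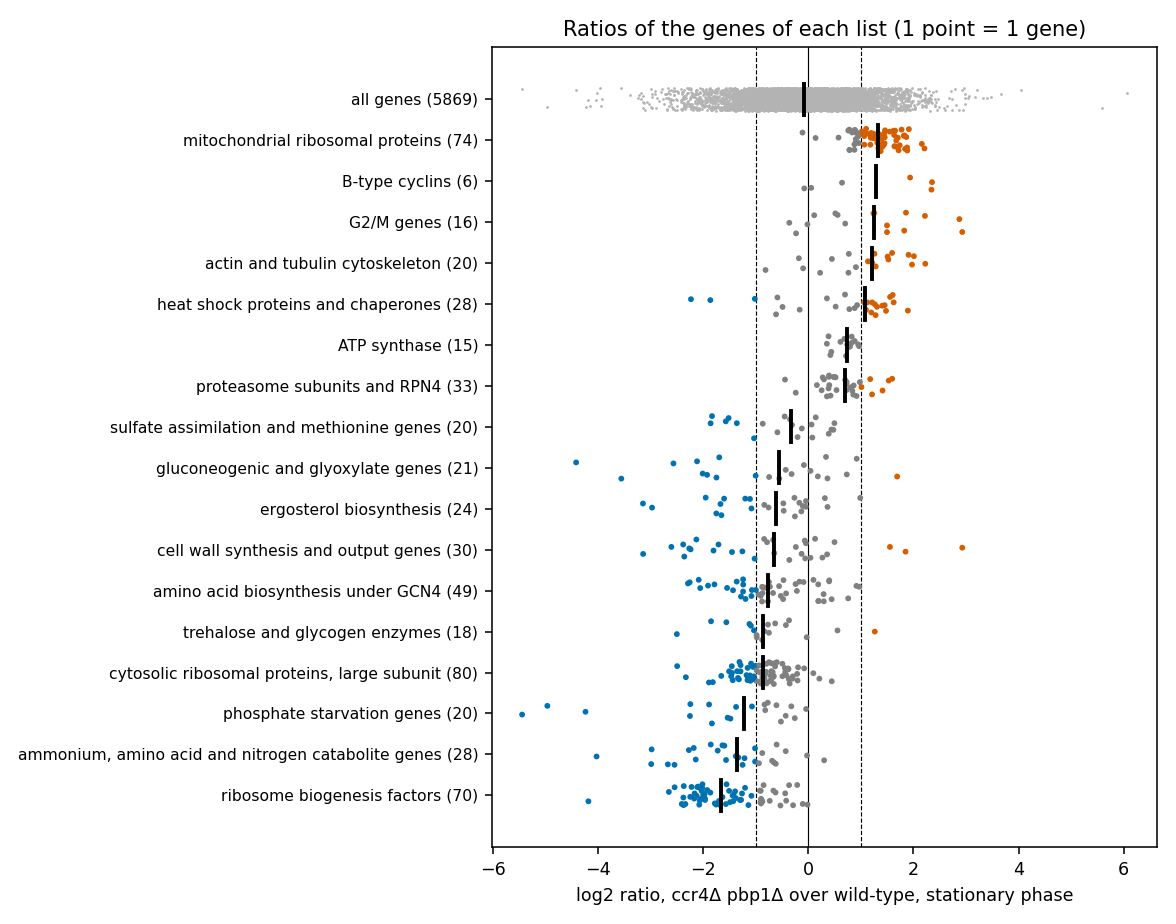
Log2 ratio of the *ccr4Δ pbp1Δ* mutant over wild-type in stationary phase (x axis) for all 5869 measured genes and for the measured genes of 17 lists (y axis, number of genes in brackets). Each point is 1 gene, orange at 2-fold higher or more and blue at 2-fold lower or more, and the black bar is the median. Medians run from 1.32 for the mitochondrial ribosomal proteins to -1.66 for the ribosome biogenesis factors, against -0.09 for all genes, and the positive ones fall under 0 with *ACT1* set equal.

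Phosphate starvation genes held the 2 lowest ratios among the 5869 genes measured on both arrays. Of 20 genes under the transcription factor Pho4, 11 were at least 2-fold lower and 0 higher, with a median log2 ratio of -1.23. *PHO89*, a sodium-coupled phosphate transporter, was at 652 in wild-type, 11.6 in the *ccr4Δ* mutant and 14.9 in the *ccr4Δ pbp1Δ* mutant, a 43.8-fold difference between the last and wild-type. *GIT1*, a glycerophosphoinositol transporter, was at 161, 3.26 and 5.12, and *PHM6*, of unknown function, at 142, 3.38 and 7.49. Both mutants had low levels of these mRNAs in stationary phase, at which the wild-type level was high. *PHO84*, the main high-affinity transporter, was at 1373 in wild-type, 191 in the *ccr4Δ* mutant and 472 in the *ccr4Δ pbp1Δ* mutant, and *SPL2*, a regulator of low-affinity uptake, at 429, 38.0 and 115. *PHO8*, the vacuolar phosphatase, had -0.26. This list was also lower in log phase, with a median of -1.12 and 13 of 20 genes at least 2-fold lower, led by *PHO5*, the secreted acid phosphatase, at 388 in wild-type and 10.3 in the *ccr4Δ pbp1Δ* mutant.

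Nitrogen genes followed. Of 28 genes for the uptake and use of ammonium, amino acids and other nitrogen sources, 19 were at least 2-fold lower and 0 higher, with a median of -1.36. *MEP2*, an ammonium transporter, was at 436 in wild-type, 101 in the *ccr4Δ* mutant and 26.6 in the *ccr4Δ pbp1Δ* mutant. *GLN1*, glutamine synthetase, was at 2009, 298 and 253, *GDH1*, glutamate dehydrogenase, at 176, 30.2 and 22.1, and *GAP1*, the general amino acid permease, at 1526, 564 and 345. The *ccr4Δ pbp1Δ* level was the lowest of the 3 for each of these, but not for *DAL5*, an allantoate permease, at 81.4, 19.7 and 24.6, and the median of the list in the *ccr4Δ* mutant over wild-type was -1.40. *PTR2*, a transporter of di- and tripeptides that the list does not hold, had a log2 ratio of -4.04. The log phase median of the list was -0.31 and 2 genes were at least 2-fold lower.

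Genes for growth on ethanol, acetate and fatty acids did not move as a block. Of 21 gluconeogenic and glyoxylate genes, 9 were at least 2-fold lower and 1 higher, with a median of -0.55. *ADY2*, an acetate transporter, was at 732 in wild-type, 44.1 in the *ccr4Δ* mutant and 34.1 in the *ccr4Δ pbp1Δ* mutant, and *ADH2*, the alcohol dehydrogenase that consumes ethanol, at 1272, 190 and 108. *ACS1*, acetyl-CoA synthetase, had a log2 ratio of -2.01 and *MDH2*, cytosolic malate dehydrogenase, had -2.12. The enzymes that define the pathway did not reach 2-fold: *ICL1*, isocitrate lyase, was at 2278 and 2145, *PCK1*, PEP carboxykinase, at 1971 and 2485 and *FBP1*, fructose-1,6-bisphosphatase, at 1668 and 2144 in wild-type and the *ccr4Δ pbp1Δ* mutant. *SUC2*, invertase, was the only gene at least 2-fold higher, at 73.7 and 238. Of 16 genes of peroxisomal fatty acid oxidation, 5 were at least 2-fold lower and 1 higher, beside 15.8% and 12.7% of all genes. *POX1*, acyl-CoA oxidase, had -2.42 and *PXA1*, a fatty acyl-CoA importer, had -2.37. *FAT3*, which takes part in fatty acid uptake and is in neither list, was at 172 in wild-type, 6.24 in the *ccr4Δ* mutant and 9.61 in the *ccr4Δ pbp1Δ* mutant.

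Of 18 trehalose and glycogen genes, 6 were at least 2-fold lower and 1 higher, beside 15.8% and 12.7% of all genes. The median of the list was -0.86. *GAC1*, a phosphatase subunit that activates glycogen synthase, was at 459 in wild-type, 68.6 in the *ccr4Δ* mutant and 80.8 in the *ccr4Δ pbp1Δ* mutant, and *GSY2*, glycogen synthase, at 113, 45.0 and 31.2. *TPS1*, trehalose-6-phosphate synthase, did not reach 2-fold, at 76.1 in wild-type and 74.4 in the *ccr4Δ pbp1Δ* mutant. Among 19 stationary phase genes, 6 were at least 2-fold lower and 1 higher, beside 15.8% and 12.7% of all genes. Their median was -0.31. *SPG4* was at 507 in wild-type, 86.5 in the *ccr4Δ* mutant and 84.7 in the *ccr4Δ pbp1Δ* mutant, and *PNS1* had -2.29. *HSP12* and *HSP26*, small stress proteins, had 0.33 and 0.64.

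Cell wall and sterol genes were lower in part. Of 30 genes of cell wall synthesis and output, 12 were at least 2-fold lower and 3 higher, with a median of -0.66. *CWP1*, a mannoprotein, was at 1845 in wild-type, 128 in the *ccr4Δ* mutant and 208 in the *ccr4Δ pbp1Δ* mutant. *EXG1*, an exoglucanase, had a log2 ratio of -2.61, *CRH1*, a transglycosylase, -2.38, *GAS1*, a glucanosyltransferase, -2.13 and *FKS1*, a glucan synthase, -1.71. *PIR1*, a structural wall protein, had 1.85, *NCW2* had 1.55 and *CHS2*, which is also counted among the G2/M genes, had 2.93. Of 22 genes of the Rho1 and cell wall integrity pathway, 6 were at least 2-fold lower and 0 higher, beside 15.8% and 12.7% of all genes. *SLT2*, its MAP kinase, was at 668 in wild-type, 243 in the *ccr4Δ* mutant and 150 in the *ccr4Δ pbp1Δ* mutant, *RLM1*, a transcription factor below it, had -1.69, and *RHO1* itself had -0.52. Of 24 ergosterol genes, 10 were at least 2-fold lower and 0 higher, with a median of -0.62. *ERG5* was at 323 in wild-type, 99.5 in the *ccr4Δ* mutant and 36.4 in the *ccr4Δ pbp1Δ* mutant, and *ERG25*, *ERG3* and *ERG11*, enzymes of the same branch, had -2.98, -1.96 and -1.20.

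The genes of mRNA decay had ratios on both sides of 0. *CAF130* and *NOT3*, subunits of the Ccr4-Not complex, had log2 ratios of -1.23 and -1.19, and the other 6 measured subunits lay between the 2-fold limits, with *POP2*, the second deadenylase, at 0.68 and *CAF40* at 0.85. None of 8 genes for poly(A)-binding proteins and Pbp1 partners passed 2-fold: *PAB1* had -0.85 and *MKT1*, which forms a complex with Pbp1, had -0.97. Of 16 genes of decapping and 5' to 3' decay, 2 were at least 2-fold higher and 2 lower, near the 12.7% and 15.8% of all genes. *DHH1*, a helicase that promotes decapping, was at 37.7 in wild-type, 12.9 in the *ccr4Δ* mutant and 15.2 in the *ccr4Δ pbp1Δ* mutant. *XRN1*, the 5' to 3' exonuclease, had -1.05 and *PAT1*, a decapping activator, had 1.24, which falls under 0 with *ACT1* set equal. Of 6 PUF proteins, which bind 3' ends of mRNAs and recruit the Ccr4-Not complex, 3 were at least 2-fold lower and 0 higher, with a median of -1.08. *PUF4* had -1.42, *PUF3* -1.21, *PUF2* -1.17 and *PUF6* -0.99, while *MPT5* had 0.03 and *JSN1* 0.16, the last 2 with a sign that depends on the scaling.

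Where the *ccr4Δ pbp1Δ* mutant and the *ccr4Δ* mutant are set side by side, both ratios use the same wild-type array, so their likeness was not measured. In the *ccr4Δ* mutant over wild-type in stationary phase, 694 of 6034 genes (11.5%) were at least 2-fold higher and 942 (15.6%) at least 2-fold lower. The amino acid genes under Gcn4, the activator of amino acid synthesis, gave values far apart: the median was -0.77 in the *ccr4Δ pbp1Δ* mutant, with 17 of 49 genes at least 2-fold lower and 0 higher, and 0.45 in the *ccr4Δ* mutant, with 4 lower and 12 higher. *ARG1*, argininosuccinate synthase, was at 939 in wild-type, 1537 in the *ccr4Δ* mutant and 250 in the *ccr4Δ pbp1Δ* mutant. *ARG3*, ornithine carbamoyltransferase, was at 121, 154 and 28.4, and *ILV2*, acetolactate synthase, at 602, 352 and 123. The *ccr4Δ pbp1Δ* level was the lowest of the 3 for each of these genes. *HIS4*, a histidine enzyme, was at 147, 833 and 179, so that only the *ccr4Δ* mutant stood apart, and *GCN4* itself had -0.22 in the *ccr4Δ pbp1Δ* mutant.

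The genes of sulfate assimilation and methionine gave medians of -0.33 in the *ccr4Δ pbp1Δ* mutant and 1.32 in the *ccr4Δ* mutant. *MET17*, homocysteine synthase, was at 44.0 in wild-type, 612 in the *ccr4Δ* mutant and 48.4 in the *ccr4Δ pbp1Δ* mutant. *MET10*, a sulfite reductase subunit, was at 50.7, 85.6 and 17.7, and *STR3*, a cystathionine lyase, at 30.3, 68.9 and 8.32. The *ccr4Δ* level was the highest of the 3 for each. The 12 genes of cell separation, which daughter cells express to dissolve the septum, had medians of -0.24 and 0.97. *EGT2* was at 44.3 in wild-type, 203 in the *ccr4Δ* mutant and 58.2 in the *ccr4Δ pbp1Δ* mutant, *CTS1*, the chitinase, at 38.2, 89.0 and 33.2, and *SCW11* at 7.93, 24.0 and 7.23. *ASH1*, a repressor in daughter cells, was the only one of the 12 past 2-fold in the *ccr4Δ pbp1Δ* mutant, at -1.14. *PDR12*, a pump for organic acids, was at 1296 in wild-type, 652 in the *ccr4Δ* mutant and 83.8 in the *ccr4Δ pbp1Δ* mutant, which is close to its log phase levels of 98.1, 106 and 94.9.

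**Figure D3:**
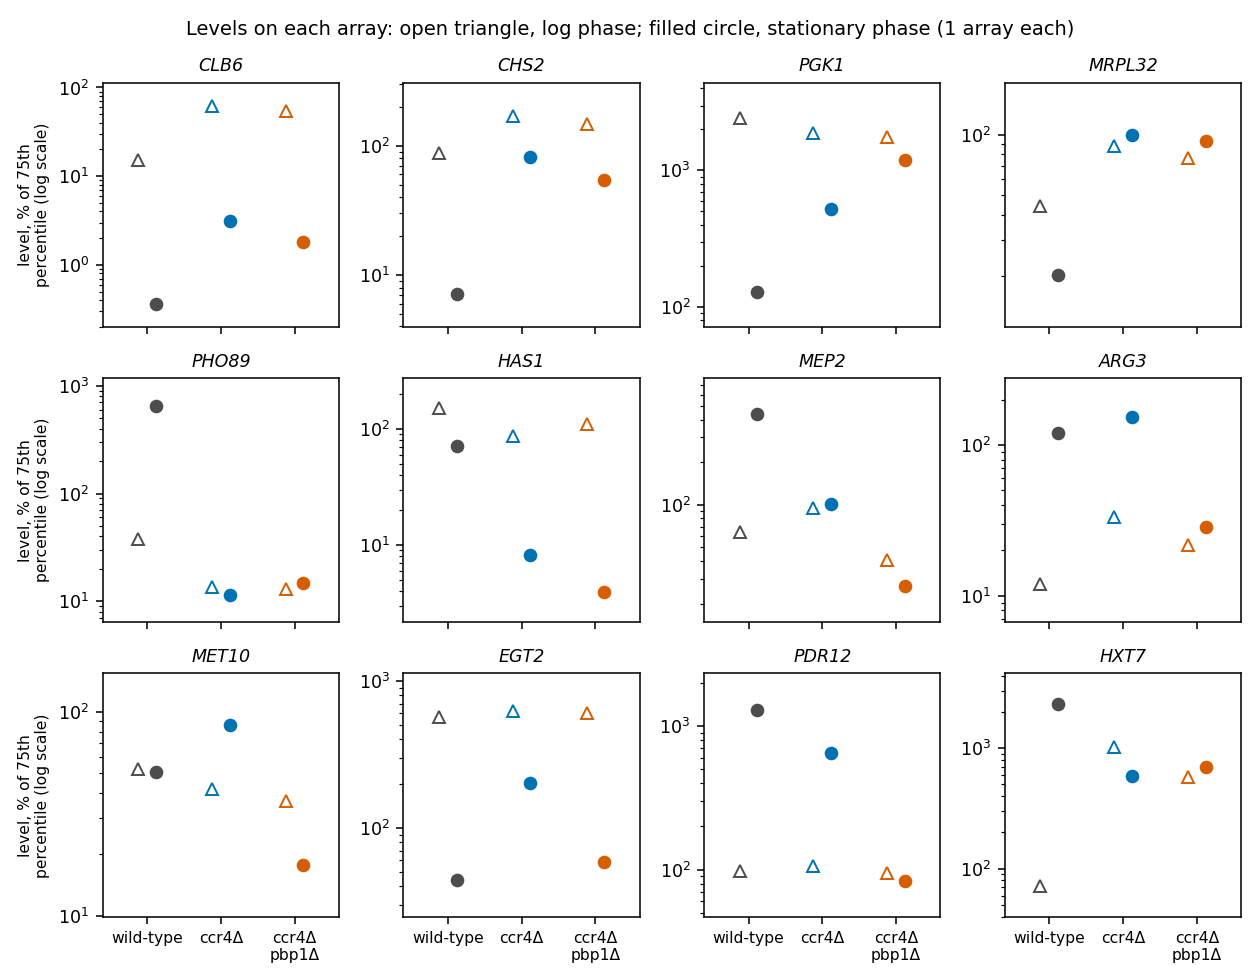
Level of 12 genes on each of the 6 arrays, in percent of the 75th percentile of the array (log scale), by strain. Open triangles are log phase and filled circles stationary phase, with 1 array each and no error bars. *CLB6*, *CHS2*, *PGK1* and *MRPL32* were lowest on the wild-type stationary phase array, *PHO89* was high only on that array, and *ARG3*, *MET10* and *PDR12* were lower in the *ccr4Δ pbp1Δ* mutant than in the *ccr4Δ* mutant in stationary phase.

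Log phase and stationary phase arrays share no sample, so the ratios of the *ccr4Δ pbp1Δ* mutant over wild-type can be set against each other. Of 5731 genes measured on all 4 arrays, 712 were at least 2-fold higher in stationary phase. Of these, 42 (5.90%) were so in log phase, beside 2.19% of all genes measured in that phase. The 42 make up 33.6% of the 125 genes higher in log phase, beside 12.7% of all genes higher in stationary phase. Of 907 genes at least 2-fold lower in stationary phase, 75 (8.27%) were so in log phase, beside 2.86% of all genes. The 75 are 47.5% of the 158 genes lower in log phase, beside 15.8% of all genes lower in stationary phase. The ratios of all 5731 genes had a Spearman's rho of 0.32 and a Pearson's r of 0.32, a description across genes, which are not independent replicates. Of the lists with medians past 2-fold in stationary phase, some had log phase medians on the same side of 0: 5.98 for the 5 a-specific genes measured, -8.39 for the α-specific genes, -1.12 for phosphate, 0.90 for the B-type cyclins, 0.47 for the G2/M genes, 0.43 for the mitochondrial ribosomal proteins, -0.31 for nitrogen and -0.29 for the PUF proteins. Others did not, at 0.03 for ribosome biogenesis, -0.12 for the actin and tubulin cytoskeleton and -0.37 for chaperones. The median of all genes in log phase was -0.08, and with *ACT1* set equal in stationary phase the positive medians other than that of the a-specific genes fall under 0.

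**Figure D4:**
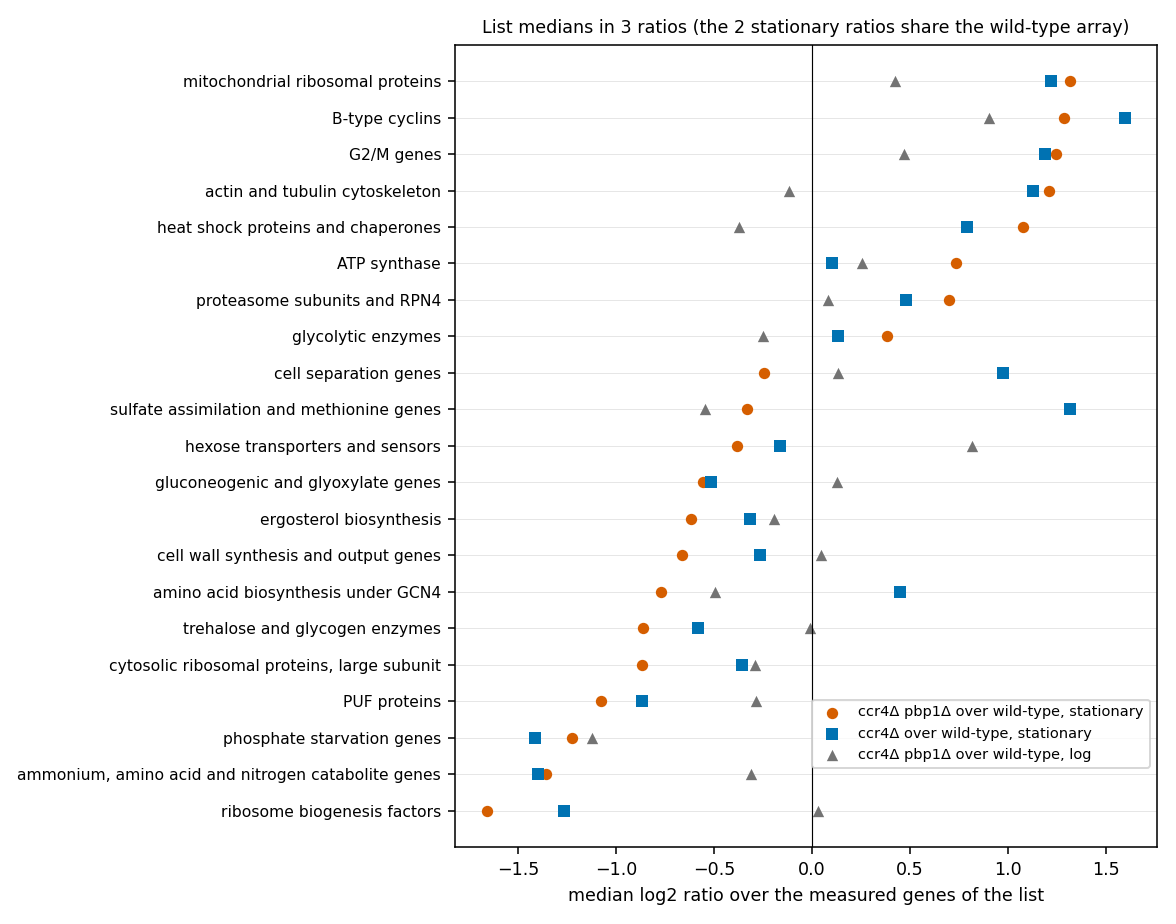
Median log2 ratio of 21 lists (y axis) in the *ccr4Δ pbp1Δ* mutant over wild-type in stationary phase (orange circles), the *ccr4Δ* mutant over wild-type in stationary phase (blue squares) and the *ccr4Δ pbp1Δ* mutant over wild-type in log phase (grey triangles). The stationary phase ratios share the wild-type array. For the amino acid, the sulfate and methionine and the cell separation genes the circles are at -0.77, -0.33 and -0.24 and the squares at 0.45, 1.32 and 0.97, and positive circles fall under 0 with *ACT1* set equal.

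Some genes with extreme ratios lay outside the groups above. *HOP2*, a meiotic gene, was at 0.328 in wild-type, 2.04 in the *ccr4Δ* mutant and 5.42 in the *ccr4Δ pbp1Δ* mutant, a log2 ratio of 4.05. It is the next gene to *AGA2* on the chromosome, and whether its probe reads transcripts of that gene was not tested. *FRE7*, a ferric or cupric reductase, was at 17.4, 61.5 and 221, *FSH3*, a putative serine hydrolase, at 6.12, 46.5 and 61.5, and *NDJ1*, a telomere protein of meiosis, at 0.481, 1.20 and 3.94. The *ccr4Δ pbp1Δ* level was the highest of the 3 for these genes. The wild-type levels of *HOP2* and *NDJ1* were low, beside 0.176 for the lowest level well above background on that array. The sizes of their ratios are therefore uncertain. After *HMRA1*, the largest bounds for genes dim in wild-type were at least 5.86-fold for YDR278C, 4.73-fold for YBR219C, 4.14-fold for *DMO1* and 3.99-fold for *LOH1*. After *PBP1* and *CCR4*, those dim in the *ccr4Δ pbp1Δ* mutant were at least 14.2-fold for *MF(ALPHA)2*, 5.22-fold for YPR195C and 3.52-fold for YDR535C.

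The remaining lists held genes past 2-fold on both sides or on one, beside 12.7% higher and 15.8% lower over all genes. Autophagy genes had 3 of 21 higher and 3 lower, with *ATG10* at 2.40, *ATG19* at 2.01 and *ATG14* at 1.79 against *ATG15*, a vacuolar lipase, at -1.58. Antioxidant genes had 4 of 25 higher, with a median of 0.40 that becomes -1.13 with *ACT1* set equal, and 1 lower, *SKN7*, a transcription factor of the oxidative stress response, at -2.55. The iron regulon had 0 of 24 higher and 3 lower, *HMX1*, heme oxygenase, at -2.80, *FRE6* at -2.04 and *FET3*, a multicopper oxidase, at -1.32. Early meiosis genes had 2 of 14 higher and 3 lower, with *SPO13* at 2.13 and *IME2*, a kinase, at -2.91. *RIM4*, an RNA-binding regulator of meiosis in the same list, was at 291 in wild-type, 15.2 in the *ccr4Δ* mutant and 18.5 in the *ccr4Δ pbp1Δ* mutant. Vacuolar hydrolases had 1 of 10 higher and 1 lower, *CPS1* at -2.05, purine genes 1 of 14 higher and 1 lower, and flocculins 1 of 5 higher and 0 lower.

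The only test the arrays allow takes the growth phases as stand-ins for replicates, in a limma fit of all 6 arrays to a strain effect plus a growth phase effect, which leaves 2 residual degrees of freedom. For the *ccr4Δ pbp1Δ* mutant over wild-type it called 0 of 5728 genes (0.0%) in either direction after Benjamini-Hochberg adjustment at 0.05, and 335 higher and 445 lower at an unadjusted p under 0.05. No list had a called gene. The smallest adjusted p was 0.107, reached by *MATALPHA1* and its copy *HMLALPHA1*, the former with a fitted log2 difference of -3.63 ± 0.35 (SE). *PNS1* with -2.25 ± 0.27 (SE), *BAR1* with 4.73 ± 0.57 (SE) and *PHM6* with -3.46 ± 0.42 (SE) each had an adjusted p of 0.126. *CLB6* had a fitted difference of 2.10 ± 0.34 (SE) with an adjusted p of 0.282, and *HAS1*, which differed in stationary phase more than in log phase, had -2.32 ± 0.80 (SE) with an adjusted p of 0.366. Without the wild-type log phase array the fit called 629 genes higher and 786 lower, with 1 residual degree of freedom. Wild-type then had its stationary phase array alone, the residual spread came from the mutant strains only, and wild-type was assumed to vary like them. This fit equals one with the slide as a term, since slide 1 held only that array. Without either *ccr4Δ* array it called 28 higher and 56 lower, and without the wild-type stationary phase array 12 higher and 22 lower.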

How the data were processed

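RNA of wild-type, *ccr4Δ* and *ccr4Δ pbp1Δ* cells was hybridised to 1-colour Agilent yeast arrays, 100 ng of total RNA each, 1 array per strain and growth phase. The authors deposited scanner tables with spot intensity from Feature Extraction 11.0.1.1, background-subtracted within the array, and a table of processed intensities. Once sorted, the columns of that table hold equal values, which quantile normalization would give, and its processing is not given in the sources used here.

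Control spots and outlier spots (0 to 2 per array) were left out, no spot was saturated, and log2 of the processed signal minus the 75th percentile of each array was averaged over the 2 spots of a probe and over the probes of a gene. A gene was measured on an array when both spots of a probe were well above background. Symbols were looked up in RefSeq genes of assembly R64, used only for names, neighbours and chromosomes, in which 5720 of 6225 systematic names were found. Probe sequences were not used.

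Named were the deleted genes, members of the 50 lists (the deleted genes are 1 of them), the 10 largest ratios in each direction among genes with a symbol whose 4 single-spot ratios passed 2-fold, and the 5 largest bounds in each direction. The members and lists were chosen with earlier results of these data known. The linear model was fitted with limma 3.58.1 (lmFit, then eBayes, in R 4.3.3) and tested on simulated data. The simulated strain effects were equal in both growth phases and the SD was the same for all genes. That test therefore does not show how the fit performs on these arrays. The residual spread of the fit holds any difference of a strain effect between the growth phases. A gene that differed mainly in stationary phase therefore has a large SE. Whether the cultures of a strain were separate is not stated, and spread between replicate cultures was not measured. Other steps used Python 3.11.15 and pandas 2.3.3. Alternatives were no, median and quantile scaling, *ACT1* as the reference, normexp background correction with an offset of 50 on the median signals (the tables hold no mean signal), the authors' processed values, the brightest probe, no filter on dim probes, other fold limits, a trended prior and leaving out each array.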

Additional observations from a re-analysis of the deposited data

Results flagged for a closer look

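For 8 of the named genes the ratio of the *ccr4Δ pbp1Δ* mutant over wild-type was past 2-fold in opposite directions in stationary phase and log phase. With 1 array per condition the difference between the growth phases was not tested. The hexose transporter genes *HXT7*, *HXT6* and *HXT4* had log2 ratios of -1.74, -1.48 and -1.98 in stationary phase and 3.03, 3.07 and 1.35 in log phase. *SPG4*, a stationary phase gene, had -2.58 and 2.19, *GAC1* and *GPH1*, of glycogen metabolism, had -2.51 and -1.12 in stationary phase and 1.20 and 2.25 in log phase, and *ALD4*, mitochondrial aldehyde dehydrogenase, had -1.75 and 1.77. *HUG1*, an inhibitor of ribonucleotide reductase, went the other way, with 1.54 in stationary phase and -1.10 in log phase. Its stationary phase levels were low, 0.217 in wild-type and 0.633 in the *ccr4Δ pbp1Δ* mutant. The lowest levels well above background on these arrays were 0.176 and 0.442, and its single-spot ratios in stationary phase ran from 1.14 to 1.95. Over all 5731 genes measured on the 4 arrays, 14 were lower in stationary phase and higher in log phase, and 2 the reverse. Slide 1 held wild-type in log phase alone and slide 2 the other 5 arrays, so a slide effect in the log phase ratios cannot be told apart from strain.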

How the results depend on the processing

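The counts of genes at least 2-fold higher and lower stayed within 1.5 times their values under no, median and quantile scaling, normexp, the authors' values, the brightest probe and no filter on dim probes, between 558 and 934 higher and between 733 and 1208 lower. No scaling gave 558 higher and 1208 lower, median scaling 923 and 733, and the authors' values 934 and 855. With *ACT1* set equal the counts were 27 higher and 4328 lower, since every ratio moves by -1.52, while a limit of 1.5-fold gave 1410 and 1731 and a limit of 4-fold 90 and 192. The other scalings moved the median of all genes by -0.17 (none), 0.14 (median) and 0.10 (quantile and the authors' values). With *ACT1* set equal the medians of the mitochondrial ribosomal proteins, B-type cyclins, G2/M genes, cytoskeleton and chaperones became -0.20, -0.23, -0.28, -0.31 and -0.44, and *RNR2*, *RNR4* and *PAT1* became -0.20, -0.30 and -0.28. No other list median past 2-fold and no other named ratio past 2-fold changed sign under the alternatives run on them, while 22 of the 23 positive list medians were under 0 with *ACT1* set equal. The additive fit called 0 genes in each direction with quantile scaling, the authors' values and a trended prior, 0 higher and 2 lower with no scaling, and 2 higher and 2 lower with no filter. Leaving out 1 array gave 0 to 629 genes higher and 0 to 786 lower, the highest without the wild-type log phase array. The cause of these differences was not tested. The stationary phase arrays compared shared slide 2. In the additive fit a slide term equals leaving out the wild-type log phase array, the only one on slide 1, and so gives the same 629 higher and 786 lower, with the residual spread taken from the mutants alone. No paired analysis was possible because each condition had 1 array. Dim probes limit the ratios of low genes, since 5869 of 6225 genes were well above background on both arrays.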

Other observations

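The median log2 ratio of the *ccr4Δ pbp1Δ* mutant over wild-type in stationary phase differed little between the nuclear chromosomes, from -0.33 over 270 genes of chromosome V to 0.19 over 86 genes of chromosome I.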
